A study of Mus musculus with 2 samples.

Results

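The FGF signal that embryonic stem cells send to themselves and to their neighbours was examined through 7 genes: the ligand gene Fgf4, the receptor genes Fgfr1, Fgfr2, Fgfr3, Fgfr4 and Fgfrl1, and Fgfbp1, which encodes an FGF-binding protein. They were taken by symbol from a mouse whole-transcript array, as the probe sets whose annotation names 1 gene and that gene is among the 7. Each has 1 probe set, so 7 of the 22180 genes measured are described. The array was read in 2 samples. One is the Niwa EWS-OCT4A-GFP stable line of Niwa embryonic stem cells, which expresses a fusion of EWS with OCT4A together with GFP, and the other is the Niwa-GFP stable line. Both lines grew in stem cell medium with LIF and both received doxycycline at 1 µg/ml, which lowers their endogenous OCT-4. Neither the length of that treatment, the promoter of the transgenes nor whether a line is 1 clone is stated in the sources used here. Each group has 1 sample, so no value below has a replicate error and no difference was tested.

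FGF4 is a secreted fibroblast growth factor made by the inner cell mass and by embryonic stem cells. FGF receptors are tyrosine kinases that dimerise when bound by ligand and heparan sulfate, and they signal through the adaptor FRS2 and the RAS-ERK cascade. In the mouse blastocyst FGF4 acts on primitive endoderm precursors and on trophectoderm, where FGFR2 is abundant, and trophoblast stem cells are kept in culture with FGF4. Transcription of Fgf4 in stem cells depends on an enhancer downstream of the coding sequence that OCT4 and SOX2 bind together. Mouse embryonic stem cells that lose OCT4 are known to turn towards trophectoderm. The series is titled for Fgf4 as a target of the fusion, and the comparison asks how this gene and its partners differ with the fusion when endogenous OCT4 is low.

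The genes at the ends of the range, Fgf4 at the high end and Fgfr2 at the low end, lie on mouse chromosome 7. Their upstream sequences are shown because these 2 genes differed most, in opposite directions. They are the 250 bases before the transcription start that RefSeq gives in GRCm38.p6, read 5′ to 3′ on the gene's strand, at chr7:144861136-144861385 on the plus strand for Fgf4 and chr7:130266809-130267058 on the minus strand for Fgfr2. Capitals mark matches on either strand to any of 7 short motifs: the GC box GGGCGG, the CCAAT box, TATATA, the POU octamer ATTTGCAT, the SOX cores ACAAAG and ACAATG, and the repeat GGAAGGAA.
Fgf4: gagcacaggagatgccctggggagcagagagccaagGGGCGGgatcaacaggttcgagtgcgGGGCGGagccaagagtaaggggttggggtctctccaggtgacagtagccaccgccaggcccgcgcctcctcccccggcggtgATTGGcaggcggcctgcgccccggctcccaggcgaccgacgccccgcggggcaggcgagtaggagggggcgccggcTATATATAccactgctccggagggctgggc
Fgfr2: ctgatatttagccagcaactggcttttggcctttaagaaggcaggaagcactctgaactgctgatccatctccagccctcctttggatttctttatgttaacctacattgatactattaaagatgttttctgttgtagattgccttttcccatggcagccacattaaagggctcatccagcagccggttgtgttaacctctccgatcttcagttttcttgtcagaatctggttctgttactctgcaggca

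The Fgf4 window held 2 GC boxes, with first bases at positions -214 and -188 from the start, 1 CCAAT box at -106 on the opposite strand, and 2 overlapping TATATA matches at -30 and -28. A GC box stood in 32.7% of all 32851 windows of this length, a CCAAT box in 33.8% and TATATA in 5.25%. The octamer (1.60% of windows), the SOX cores (16.5% and 10.7%) and GGAAGGAA (3.12%) had 0 matches in it. The Fgfr2 window had 0 matches to any of the 7. Its base composition also differed, with 44.0% G or C and 2 CpG pairs in the Fgfr2 window and 71.2% and 21 in that of Fgf4, against a median of 52.4% over all windows. Of the other members, Fgfr3 (2 start sites), Fgfr4, Fgfrl1 and Fgfbp1 also have a window in the table. GC boxes stood in every one of these except that of Fgfbp1, at 2 to 4 a window, and the octamer in 0. Letters in a window describe the sequence only, and the downstream enhancer lies outside it.

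Fgf4 was the only one of the 7 that was at least 2-fold higher in EWS-OCT4A-GFP cells. It read 8.38 in EWS-OCT4A-GFP cells and 4.09 in GFP cells, both log2 values of the authors' RMA normalization (probe set 17485437). The difference was 4.29, or 19.5-fold. In whole-culture RNA, here and below, fewer cells of a type cannot be told apart from less RNA per cell. The GFP value lay just under the median of all values on the arrays, 4.10, which served as a floor. With the GFP value raised to that floor the size was 19.4-fold, but how far a value near the floor stands above background is not known. Ranked from the highest difference down, Fgf4 was number 17 of 22180 genes. At or above the floor, 9.31% of 13516 genes were higher by 2-fold or more, 11.9% were lower by as much, and 21.2% were 1 or the other.

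Fgfr2 and Fgf4 lay at opposite ends. Fgfr2, the receptor gene best known from trophectoderm and epithelia (probe set 17496947), read 4.88 in EWS-OCT4A-GFP cells and 8.01 in GFP cells. The difference was -3.12, a size of 8.72-fold, and Fgfr2 was number 136 of all genes from the lowest difference up. Fgfr1, the main FGF receptor gene of undifferentiated embryonic stem cells, read 6.05 in EWS-OCT4A-GFP cells and 6.54 in GFP cells. Its difference was -0.49, well inside 2-fold. The array values do not separate the IIIb and IIIc splice forms of these receptors, which bind different ligands.

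The remaining kinase receptors read low in both samples. Fgfr3, which restrains bone growth, read 4.51 in EWS-OCT4A-GFP cells and 3.80 in GFP cells, a difference of 0.71 that shrank to 0.41 with the GFP value raised to the floor. Fgfr4, the receptor that pairs with beta-Klotho in liver, read 4.27 and 4.14 in EWS-OCT4A-GFP and GFP cells, a difference of 0.13. Differences between such low values can be compressed by RMA and do not show equal levels.

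Fgfrl1 and Fgfbp1 were both lower in EWS-OCT4A-GFP cells. Fgfrl1 encodes a receptor that binds FGFs but lacks the kinase domain. It read 4.90 in EWS-OCT4A-GFP cells and 6.38 in GFP cells, a difference of -1.49 or 2.81-fold. Fgfbp1 encodes a secreted carrier that releases FGFs from the matrix. It read 6.20 in EWS-OCT4A-GFP cells and 7.44 in GFP cells, a difference of -1.24 or 2.36-fold, the smallest of the 4 that passed the 2-fold size.

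Of the 7 members, 1 was at least 2-fold higher, 3 at least 2-fold lower and 3 within 2-fold. All 7 had the higher of their values at or above the floor, and 5 had both. Among the 5 receptor genes 0 were at least 2-fold higher and 2 lower, with a median difference of -0.49. The median over all 22180 genes was 0.00. Across the 13516 genes that reached the floor, 2-fold calls made up 9.31% (higher) and 11.9% (lower). The members were chosen with earlier results of these data known, so their counts describe the genes named and no wider trend.

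**Figure D1:**
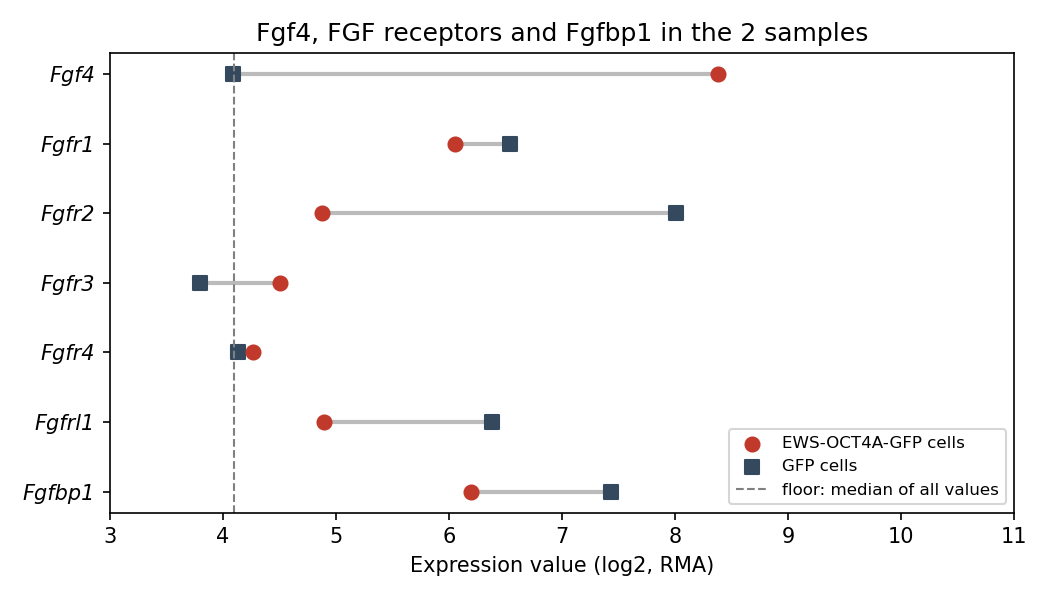
Log2 RMA values (x axis) of the 7 genes (y axis) in EWS-OCT4A-GFP cells (circles) and GFP cells (squares), joined by a line, with the floor of 4.10 dashed; each point is 1 sample. Fgf4 lies at 8.38 in EWS-OCT4A-GFP cells and at the floor in GFP cells, while Fgfr2 lies at 4.88 in EWS-OCT4A-GFP cells and 8.01 in GFP cells.

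**Figure D2:**
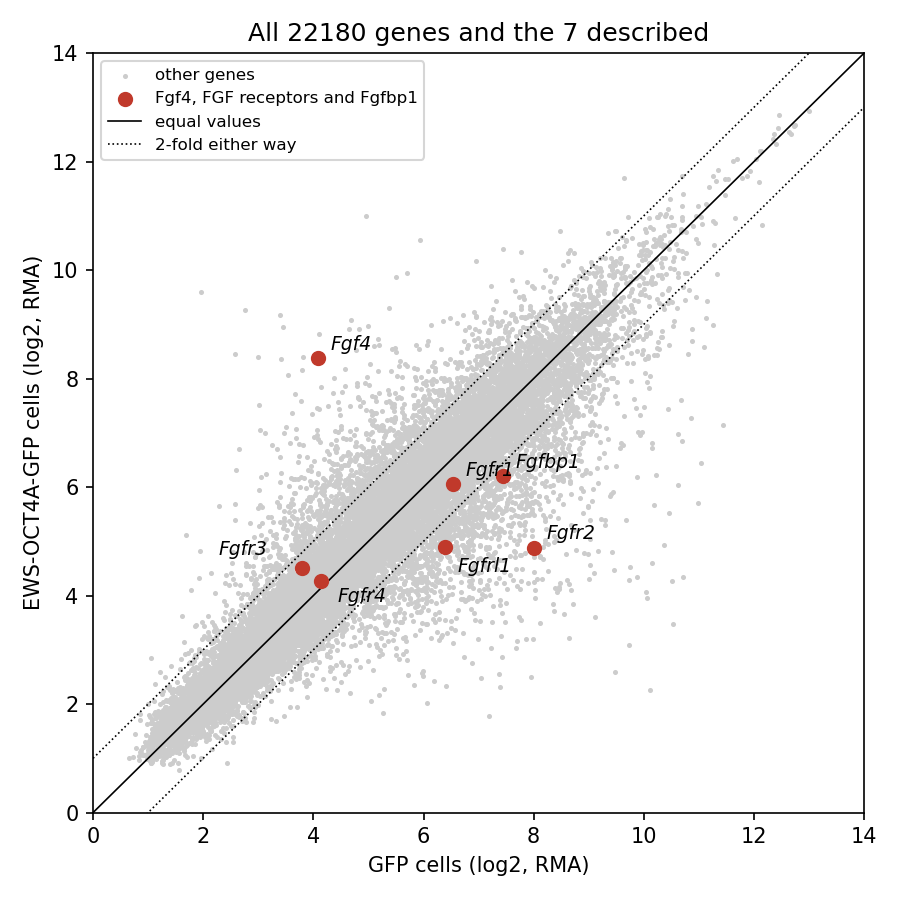
Each point is 1 gene, with its log2 RMA value in EWS-OCT4A-GFP cells on the y axis and in GFP cells on the x axis; dotted lines mark 2-fold. Among 22180 genes, Fgf4 lies above the upper dotted line, Fgfr2, Fgfrl1 and Fgfbp1 lie under the lower dotted line, and Fgfr1, Fgfr3 and Fgfr4 lie between the lines.

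Fgf4 was set beside the other ligand genes of the family. All 22 listed ligands were measured. The other 21 differed by -0.54 to 0.88 and 0 of them reached 2-fold. Fgf4 was thus 9.09% of the 11 ligands at or above the floor, near the 9.31% of all genes that were at least 2-fold higher. At least 2-fold lower were 0 ligands, against 11.9% of all genes. Fgf18, a ligand of skeletal and lung development, read 5.68 in EWS-OCT4A-GFP cells and 4.79 in GFP cells. Fgf17 read 5.70 and 5.15 in EWS-OCT4A-GFP and GFP cells, a difference of 0.54. Fgf5, which marks the formative and primed states that follow naive pluripotency, read 3.51 in EWS-OCT4A-GFP cells and 3.37 in GFP cells, both under the floor. In all, 11 of the 22 ligands stayed under the floor in both samples, and a difference there could go unseen.

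**Figure D3:**
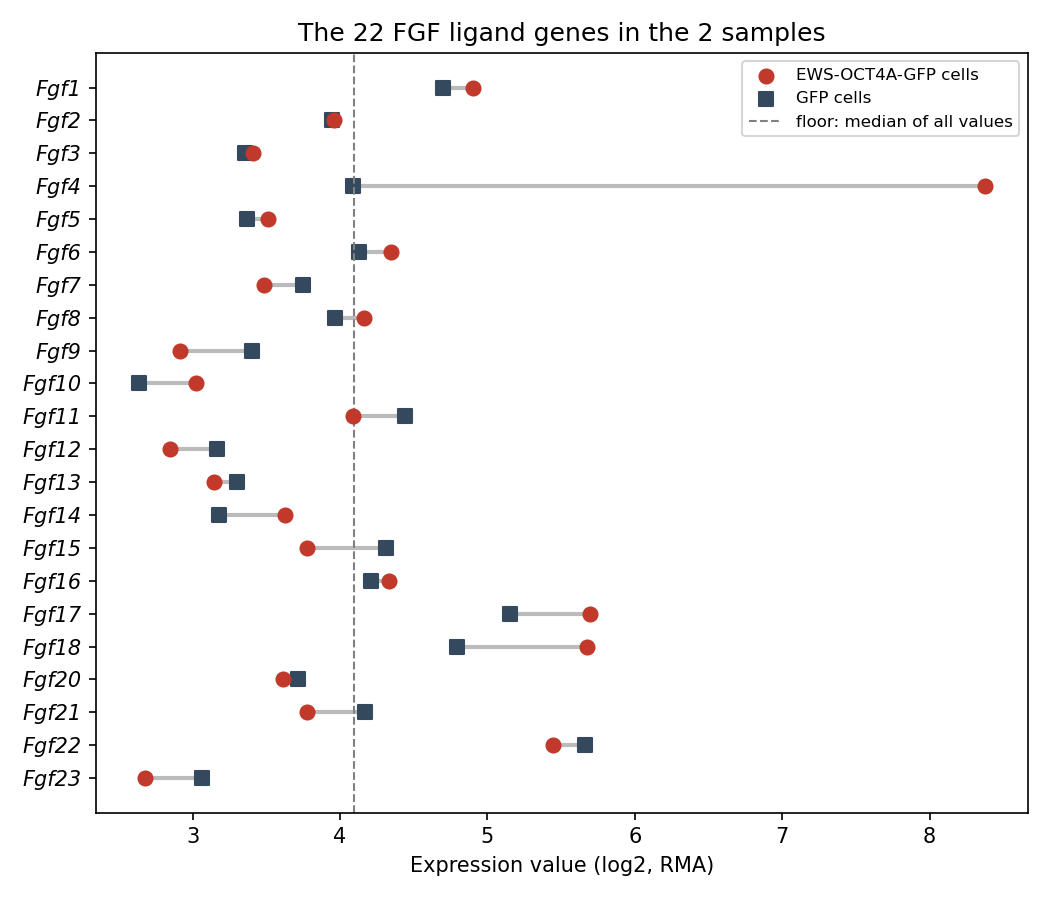
Log2 RMA values (x axis) of the 22 FGF ligand genes (y axis) in EWS-OCT4A-GFP cells (circles) and GFP cells (squares), 1 sample each, with the floor of 4.10 dashed. Fgf4 is the 1 ligand whose points lie more than 2-fold apart, and the highest value of any other ligand is 5.70.

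The genes beside Fgf4 on chromosome 7 include ligands of the same family. Fgf3, on one side, read 3.41 in EWS-OCT4A-GFP cells and 3.36 in GFP cells. Fgf15, on the other, read 3.77 and 4.31 in EWS-OCT4A-GFP and GFP cells, a difference of -0.54. Both flanking ligands were within 2-fold, with values near or under the floor. Looking further, to the 3 nearest measured coding genes on each side (chosen after the values were seen), Ano1 (-0.40) and Fadd (0.15) were within 2-fold. LTO1 differed by -1.05, and the cyclin D1 gene Ccnd1 by 2.01, with 6.76 in EWS-OCT4A-GFP cells and 4.75 in GFP cells. Among the 3 RefSeq neighbours on each side of Fgfr2, 1 was measured, the noncoding Gm4265 (0.16). Of the 6 nearest measured coding genes around Fgfr2, Wdr11 (-0.04), Plpp4 (0.04), Sec23ip (-0.03), Ate1 (-0.83) and Nsmce4a (-0.41) were within 2-fold. Tacc2, at -1.87, was the exception.

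Factors known at the Fgf4 enhancer and promoter were also read. Sox2, the partner of OCT4 at the enhancer, read 9.87 in EWS-OCT4A-GFP cells and 5.50 in GFP cells, a difference of 4.37. Pou5f1, which encodes OCT4, read 5.37 and 5.24 in EWS-OCT4A-GFP and GFP cells. The sources used here do not say whether its probe set detects the transgene, so it does not check the labels. Sp1 and Sp3, whose products bind GC boxes, differed by 0.31 and -0.74, the coactivator gene Ep300 by 0.35 and the POU factor gene Pou3f1 by -0.32. Of 9 measured genes on this list, Sox2 alone reached 2-fold, and the median difference was -0.16. The 1 higher and 0 lower were 12.5% and 0% of the 8 at or above the floor, against 9.31% and 11.9% of all genes.

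The genes whose pair of log2 values lay nearest to that of Fgf4, by Euclidean distance over the 2 samples, were Etv5 (0.27), Socs2 (0.37), Pipox (0.45), H2-M5 (0.53) and Tcl1 (0.54). Etv5 encodes an ETS factor of the ERK response, Socs2 a cytokine signalling inhibitor and Tcl1 an AKT coactivator. Nearest to Fgfr2 were Pmp22 (0.07), Lrrc8c (0.16), Plcg2 (0.17), Irx3 (0.19) and Amot (0.19). Amot encodes angiomotin, a regulator of the Hippo pathway, and Plcg2 a phospholipase of the PLC-gamma type. Over 2 samples such likeness is weak, and values of different probe sets are not levels on a common scale.

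Genes that shape the access of FGFs to their receptors were read next. The heparan sulfate list had 21 measured genes, of which 3 were at least 2-fold higher and 2 lower, with a median of -0.11. These were 15.8% and 10.5% of the 19 at or above the floor, near the 9.31% and 11.9% of all genes. Sulf1, an extracellular sulfatase that trims the 6-O-sulfates that FGF-receptor complexes use, read 7.35 in EWS-OCT4A-GFP cells and 3.98 in GFP cells, a difference of 3.37. Sulf2, its homologue, read 8.65 and 7.28 in EWS-OCT4A-GFP and GFP cells. Ext1, a polymerase of the heparan sulfate chain, was higher by 1.09. The membrane proteoglycan gene Sdc4 was lower, with 7.47 in EWS-OCT4A-GFP cells and 10.0 in GFP cells, and Sdc3 differed by -1.01. Among 9 co-receptor and binding protein genes, N-cadherin (Cdh2) was the 1 that reached 2-fold, narrowly (1.01, with 4.79 and 3.78 in EWS-OCT4A-GFP and GFP cells). It no longer did so under median or loess centring (0.98 each) or with probe sets averaged (0.77), and with the higher floors its call was lost too. As deposited, the 1 call was 20% of the 5 genes of this list at or above the floor, against 9.31% of all genes. The other 4 stayed under the floor in both samples. Flrt1 differed by -0.92, Ncam1 by 0.50 and Fgfbp3, a relative of Fgfbp1, by -0.42. The Klotho genes read low in both samples, with Kl at 3.15 in each, and Klb at 2.91 in EWS-OCT4A-GFP cells and 2.73 in GFP cells.

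Inside the cell, 3 adaptor genes were lower by 2-fold or more, and the measured genes of the kinase cascade stayed within 2-fold, except that Rasa1 passed it under loess centring (-1.01). The adaptor list had 16 measured genes, 12 of them with a difference below 0, against 10223 of all 22180 genes. Its median was -0.54. Of its 14 genes at or above the floor, 0 were at least 2-fold higher, against 9.31% of all genes. The 3 lower ones made up 21.4%, against 11.9% of all genes. Gab2, a docking protein gene for SHP2 and PI3-kinase, read 3.85 in EWS-OCT4A-GFP cells and 8.71 in GFP cells, a difference of -4.86. Its homologue Gab1 differed by -1.29 and the ubiquitin ligase gene Cbl by -1.13. Grb2 (0.29), Ptpn11 (-0.77), which encodes SHP2, and Sos1 (-0.56) were within 2-fold, and Frs2 had no probe set of its own. As deposited, the 9 measured genes of the RAS-ERK cascade lay between -0.91 (Rasa1, which encodes a RAS GTPase-activating protein) and 0.41, with Braf (-0.84) and Map2k1 (-0.77). The remaining 6 of the 15 listed were not analysed here.

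Genes that ERK signalling is known to induce were read next. Of 15 genes of negative feedback and ETS factors, 8 were at least 2-fold higher and 1 lower, with a median of 1.08. The 8 made up 57.1% of the 14 at or above the floor, against 9.31% of all genes. The 3 ETS factor genes of the PEA3 group were all among them. Etv1 read 7.003 in EWS-OCT4A-GFP cells and 3.116 in GFP cells, a difference of 3.89, beside 4.57 for Etv5 and 1.74 for Etv4. Il17rd, which encodes the FGF receptor antagonist SEF, was higher by 1.08, and Spry2, which encodes a Sprouty inhibitor, by 1.81. The ERK phosphatase gene Dusp6 (2.98) and Spred1 (3.33), which encodes an inhibitor of RAS activation, were also in this group. Dusp5, which encodes a nuclear ERK phosphatase, was the 1 lower, at -1.58. Transcript levels do not measure receptor or ERK activity.

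The FGF receptors were set beside the other receptor tyrosine kinases. Of 46 measured genes, 7 were at least 2-fold higher and 8 lower. These were 20.6% and 23.5% of the 34 at or above the floor, against 9.31% and 11.9% of all genes. With the floor at the 75th percentile of all values or at a log2 value of 6, the 7 higher and the 8 lower each became 5. The median difference was -0.19, against -0.18 for the 4 FGF receptors with a kinase. Egfr, the EGF receptor gene, had 4.32 in EWS-OCT4A-GFP cells and 7.38 in GFP cells, a difference of -3.06 beside the -3.12 of Fgfr2, and Met (-2.54) and Flt3 (-2.34) were lower too. The stem cell factor receptor gene Kit read 8.975 in EWS-OCT4A-GFP cells and 4.998 in GFP cells, Epha2 was higher by 3.22 and Tek by 2.81. Egfr, of another receptor family, thus differed by about as much as Fgfr2. The FGF receptors as a group were not tested against the other receptors.

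**Figure D4:**
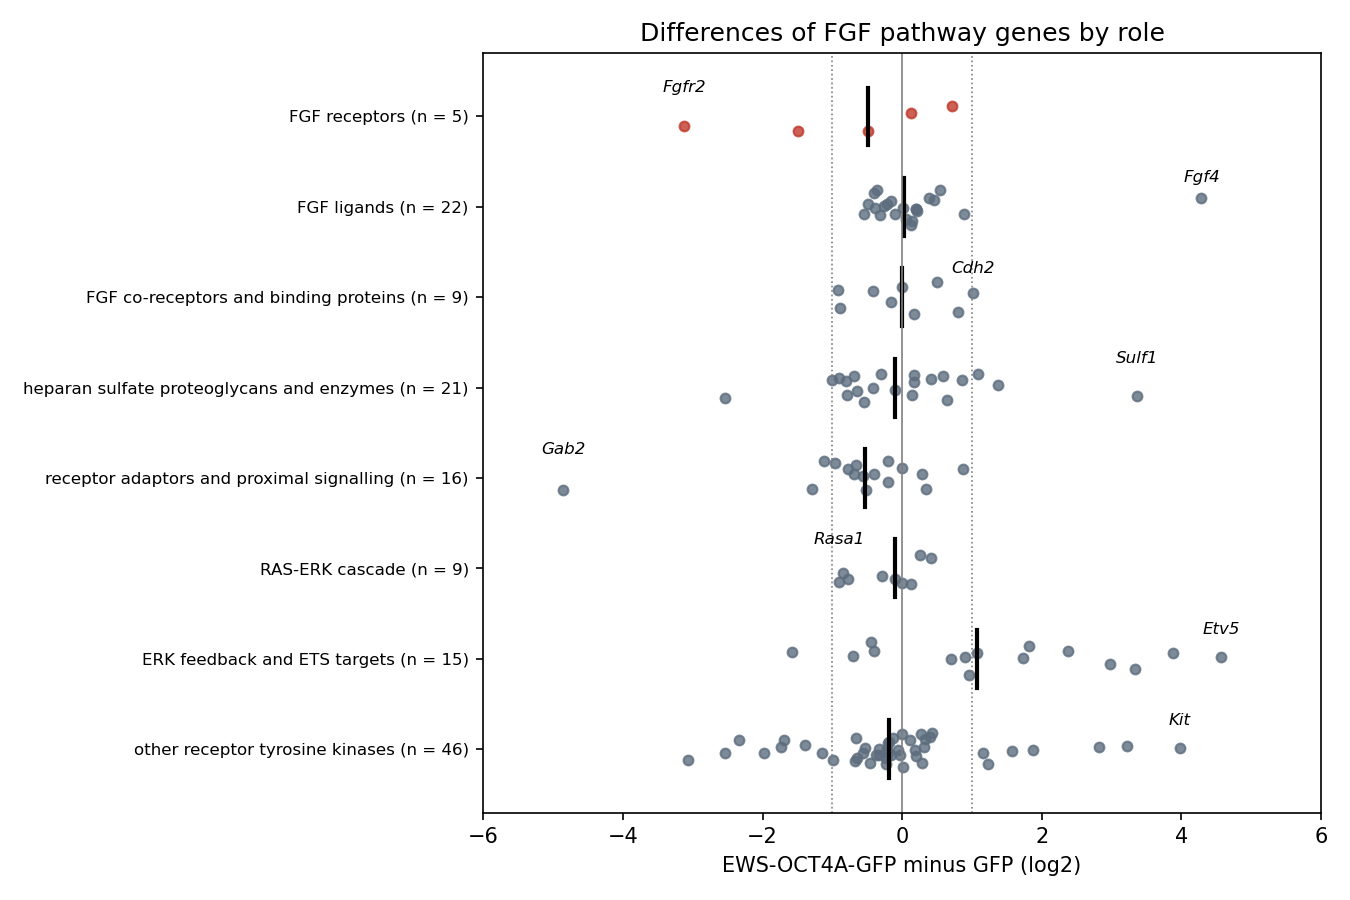
EWS-OCT4A-GFP minus GFP difference in log2 (x axis) for each measured gene (points) of the 5 FGF receptors and 7 gene lists (y axis, jittered), with black bars at the medians, dotted lines at 2-fold and the gene of largest size named. The ERK feedback and ETS list has its median at 1.08, and the medians of the other groups lie between -0.54 and 0.03.

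Fgf4 and Fgfr2 differed in samples that also differed in markers of cell type. Of 17 pluripotency markers, 13 were at least 2-fold higher and 0 lower in EWS-OCT4A-GFP cells, with a median of 1.52. The 13 made up 81.25% of the 16 at or above the floor, against 9.31% of all genes. The summed linear values of the list were 9841 in EWS-OCT4A-GFP cells and 1598 in GFP cells. Of 14 trophectoderm markers, 10 were at least 2-fold lower and 1 higher, with a median of -2.56. All 14 were at or above the floor, and the shares were 71.4% and 7.14%, against 11.9% and 9.31% of all genes. The sums were 818 and 7349 in EWS-OCT4A-GFP and GFP cells. Cdx2, which specifies trophectoderm, read 5.54 in EWS-OCT4A-GFP cells and 6.09 in GFP cells, and Eomes, which trophoblast stem cells need, read 4.21 and 6.16. Primitive endoderm markers had 1 of 10 higher and 5 lower. These were 11.1% and 55.6% of the 9 at or above the floor, against 9.31% and 11.9% of all genes. Lama1 was the 1 higher, by 2.86, the largest size on this list. Gata6 read 3.787 in EWS-OCT4A-GFP cells and 5.995 in GFP cells. Gata4 (-0.115), Foxa2 (-0.209) and Sox7 (0.709) were within 2-fold, and Sox17 was under the floor in both samples. The sums were 431 and 690 in EWS-OCT4A-GFP and GFP cells. Of 10 fibroblast markers, which would report feeder cells, Postn (-4.04) was the only one to reach 2-fold. That was 16.7% of the 6 at or above the floor, against 11.9% of all genes. The sums were 165 and 228 in EWS-OCT4A-GFP and GFP cells. Postn had the highest GFP value of this list, 6.062, and read 2.025 in EWS-OCT4A-GFP cells, so the gap between the sums rests on it. Under the floor in both samples were 1 pluripotency marker, 1 primitive endoderm marker and 4 fibroblast markers. Linear sums are weighted to the genes with the highest values, and probe sets have no common scale, so the sums do not measure amounts of a cell type. The part of cell type in the differences of Fgf4, Fgfr2, Fgfrl1 and Fgfbp1 was not tested.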

How the data were processed

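The series has 2 samples of mouse embryonic stem cells, 1 for each stable line. The deposited log2 values were made by the authors with RMA (background correction, quantile normalization and median polish) in Affymetrix Expression Console 1.1, per the submitters' processing notes. The table does not state the log base; log2 is assumed, as RMA output normally has it. The genome build and whether the stated duplicates were averaged are not given in the sources used here. How far a value lies above background is not known. The number of arrays limits the precision.

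Of 33793 probe sets, 23521 carried 1 gene symbol and named 22180 genes. For the 1082 genes with several probe sets, the one with the highest mean stood for the gene. Gene IDs of 23328 probe sets were in a RefSeq table of GRCm38.p6, and 0 symbols differed. Sequences are RefSeq's. Differences are EWS-OCT4A-GFP cells minus GFP cells. With 1 sample a group, no test was run: a gene was called by size, at least 2-fold apart with the higher value no lower than a floor of 4.10, which is the median over both arrays. The named genes were the 7 members, up to 4 genes per list with the largest difference at or above that floor, the 5 genes nearest in pattern to Fgf4 and to Fgfr2, and the 3 neighbours on each side of these; others were named after their values were seen. Members and lists were chosen with earlier results of these data known. The 12 lists had 209 entries. Alternatives were other centrings, size thresholds, floors and probe set rules. Python 3.11.15, numpy 2.4.6, pandas 2.3.3, statsmodels 0.14.6 and matplotlib 3.10.9 were used.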

Additional observations from a re-analysis of the deposited data

How the results depend on the processing

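No paired analysis was possible because each line has 1 sample, and no replicate could be left out. The deposited values were already quantile normalized, with medians of 4.11 in EWS-OCT4A-GFP cells and 4.08 in GFP cells. Median and quantile centring could therefore shift a difference only slightly. The differences of all 7 members kept their sign under median, quantile and loess centring, and none moved by as much as 1.5-fold. With values raised to the floor none moved by as much either, but there a sign cannot reverse, by construction. Averaging probe sets could change no member, because each has 1 probe set. Fgf4 ranged from 4.20 to 4.29, Fgfr2 from -3.22 to -3.11, Fgfrl1 from -1.57 to -1.49, Fgfbp1 from -1.33 to -1.22 and Fgfr3 from 0.41 to 0.71. The counts of members depend on the size asked for, by construction: 2 were higher at 1.5-fold, where Fgfr3 joined Fgf4, and 1 was lower at 3-fold, where only Fgfr2 was left. Of 65 list medians under the alternatives, all 65 moved by less than 1.5-fold in linear terms. Over genes at or above the floor only, the ligand median was 0.19, that of co-receptors -0.16 and that of primitive endoderm markers -1.15, with fewer genes by construction. Of 234 counts of called genes per list or over all genes, 30 moved by over 1.5 times or between 0 and a higher count. Other size thresholds and floors change such counts by construction. Signal over background is unknown, which limits Fgfr3, Fgfr4 and the GFP value of Fgf4.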
